A study of Mus musculus with 8 samples.

Results

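Chromatin immunoprecipitation followed by sequencing (ChIP-seq) for the histone modifications H3K4me2 and H3K27ac was compared in Beta-TC6 cells. This line comes from a mouse insulinoma, a tumour of the insulin-producing cells of the pancreas, and serves as a beta-cell model. The compared items were the 41140 H3K4me2 intervals and the 29735 H3K27ac intervals of the deposited peak lists, 70875 of the 137716 intervals in the 6 lists of the series. An interval was called shared when it had at least 1 bp in common with an interval of the other mark, and unshared otherwise. All cells were untreated, held below 15 passages, harvested at confluence and fixed with 2 mM DSG, a protein crosslinker, for 30 min and with 1% formaldehyde for 10 min. Chromatin was sheared to 200 to 1000 bp. Each mark had 1 library, and both were called against the same input, so neither a replicate spread nor a test between conditions could be given. The H3K4me2 library held 26678241 tags, of which 21.0% fell in its intervals, and the H3K27ac library 13430083 tags, of which 37.2% fell in its intervals. A region below the tag threshold of a list (17 tags for H3K4me2 and 11 for H3K27ac) is absent from it, so an unshared interval is one at which the other mark was not called at this depth. The lists of PDX1 (34883 intervals), H2A.Z (26455), BMAL1 (4125) and CLOCK (1378) from the same line served as further readouts.

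H3K4me2 is dimethylation of lysine 4 of histone H3, a mark found at promoters and at enhancers whether or not these are active. H3K27ac is acetylation of lysine 27 of the same histone and is placed by acetyltransferases such as p300 and CBP at promoters and enhancers in use. The methyl mark without the acetyl mark is therefore often read as a primed or poised element, and wide acetylated domains are known around genes that define a cell type, such as those of insulin and of the beta-cell transcription factors. These statements are background. The lists themselves hold no expression values.

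Genes were first sorted by the marks at their ends. Of 21887 protein-coding genes, 7996 (36.5%) had an interval of both marks within 1 kb of either end of the gene, 4216 (19.3%) had H3K4me2 only, 748 (3.42%) had H3K27ac only and 8927 (40.8%) had neither. These counts depended on the thresholds, and at 8 times the input they were 553, 933, 3410 and 16991. The marks of a gene with both could lie at opposite ends, and a gene with 1 mark could carry the other farther than 1 kb away. Promoter sequences of 6 genes illustrate the 4 classes below, since promoters of the classes differed in their content of CpG, the dinucleotide at which mouse DNA is methylated. The genes were chosen after their values were seen. Each line gives the 250 bases before the RefSeq start site (GRCm38.p6, whose coordinates are those of mm10), 5′ to 3′, with CpG in capitals. Ins1 (chr19:52264047-52264296, plus strand, encoding insulin) and Pdx1 (chr5:147269847-147270096, plus strand, encoding a homeodomain factor of beta cells) carried both marks. Gsx1 (chr5:147188446-147188695, plus strand, a neural homeobox gene) carried H3K4me2 only, and Pclo (chr5:14514668-14514917, plus strand, encoding the active-zone protein piccolo) H3K27ac only. Pax7 (chr4:139832969-139833218, minus strand, a muscle and neural crest factor) and Cpa1 (chr6:30638968-30639217, plus strand, encoding an acinar carboxypeptidase) carried neither.
Ins1: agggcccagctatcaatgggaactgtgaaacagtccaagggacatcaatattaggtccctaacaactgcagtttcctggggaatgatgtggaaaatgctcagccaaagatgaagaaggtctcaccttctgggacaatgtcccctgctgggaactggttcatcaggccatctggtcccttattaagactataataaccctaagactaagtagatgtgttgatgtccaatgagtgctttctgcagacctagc
Pdx1: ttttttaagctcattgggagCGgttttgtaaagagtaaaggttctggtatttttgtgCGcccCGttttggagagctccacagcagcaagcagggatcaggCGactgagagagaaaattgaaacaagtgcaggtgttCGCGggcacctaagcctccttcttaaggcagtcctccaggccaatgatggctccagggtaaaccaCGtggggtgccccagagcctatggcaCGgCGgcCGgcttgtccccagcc
Gsx1: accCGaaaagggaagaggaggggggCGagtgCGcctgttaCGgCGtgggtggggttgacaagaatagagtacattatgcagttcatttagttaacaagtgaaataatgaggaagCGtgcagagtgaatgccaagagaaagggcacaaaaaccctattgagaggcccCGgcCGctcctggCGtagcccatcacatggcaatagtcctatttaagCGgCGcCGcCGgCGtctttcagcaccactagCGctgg
Pclo: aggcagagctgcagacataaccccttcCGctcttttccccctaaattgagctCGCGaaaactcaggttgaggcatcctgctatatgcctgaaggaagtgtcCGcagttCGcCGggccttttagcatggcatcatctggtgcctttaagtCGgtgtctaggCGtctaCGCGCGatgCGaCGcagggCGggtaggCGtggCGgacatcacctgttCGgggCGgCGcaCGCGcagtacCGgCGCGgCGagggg
Pax7: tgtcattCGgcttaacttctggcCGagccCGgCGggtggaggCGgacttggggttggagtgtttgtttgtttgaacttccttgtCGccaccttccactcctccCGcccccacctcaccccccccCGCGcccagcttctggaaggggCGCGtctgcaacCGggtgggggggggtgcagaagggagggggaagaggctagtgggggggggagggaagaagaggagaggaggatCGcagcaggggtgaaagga
Cpa1: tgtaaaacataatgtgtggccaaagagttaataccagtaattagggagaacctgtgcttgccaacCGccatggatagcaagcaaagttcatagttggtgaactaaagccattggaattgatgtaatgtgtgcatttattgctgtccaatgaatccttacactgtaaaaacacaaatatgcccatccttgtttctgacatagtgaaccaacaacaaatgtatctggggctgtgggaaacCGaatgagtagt

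These sequences held 0 CpG in Ins1, 10 in Pdx1, 15 in Gsx1, 25 in Pclo, 13 in Pax7 and 2 in Cpa1. The comparison of all promoters used windows of 300 bases (250 before to 50 after the start), which were present for 21263 start sites of 17492 protein-coding genes. Start sites with both marks within 1 kb had a median of 23 CpG (quartiles 15 and 31), those with H3K4me2 only 18 (11 and 26), those with H3K27ac only 21 (11.5 and 29) and those with neither 3 (1 and 6). The ratio of observed to expected CpG was at least 0.6 in 80.1% of the promoters with both marks (Wilson 95% interval 79.2 to 80.9%), 62.1% with H3K4me2 only (60.6 to 63.6%), 70.9% with H3K27ac only (67.5 to 74.1%) and 9.62% with neither (9.02 to 10.3%). Promoters with either mark were thus mostly rich in CpG, and those with H3K4me2 only were less so than those with both. The Ins1 promoter, with 0 CpG, and the Pax7 promoter, with 13, show that single genes departed from this order in both directions. At least 1 CG, which reads the same on both strands, was present in 95.4% of all windows. The letters TATAAA, on either strand, were found in 12.6% of all 21263 windows. By class it was 5.95% with both marks, 7.28% with H3K4me2 only, 7.69% with H3K27ac only and 21.5% with neither. The median GC content of the windows was 62.3%, 61.3%, 60% and 48% in the same order. Its part in the TATAAA shares was not tested. Among the 7885 promoters with both marks the CpG number and the tags of the mark were weakly related, with Spearman's rho of 0.09 for H3K4me2 and 0.18 for H3K27ac across promoters, which are not independent replicates.

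**Figure D1:**
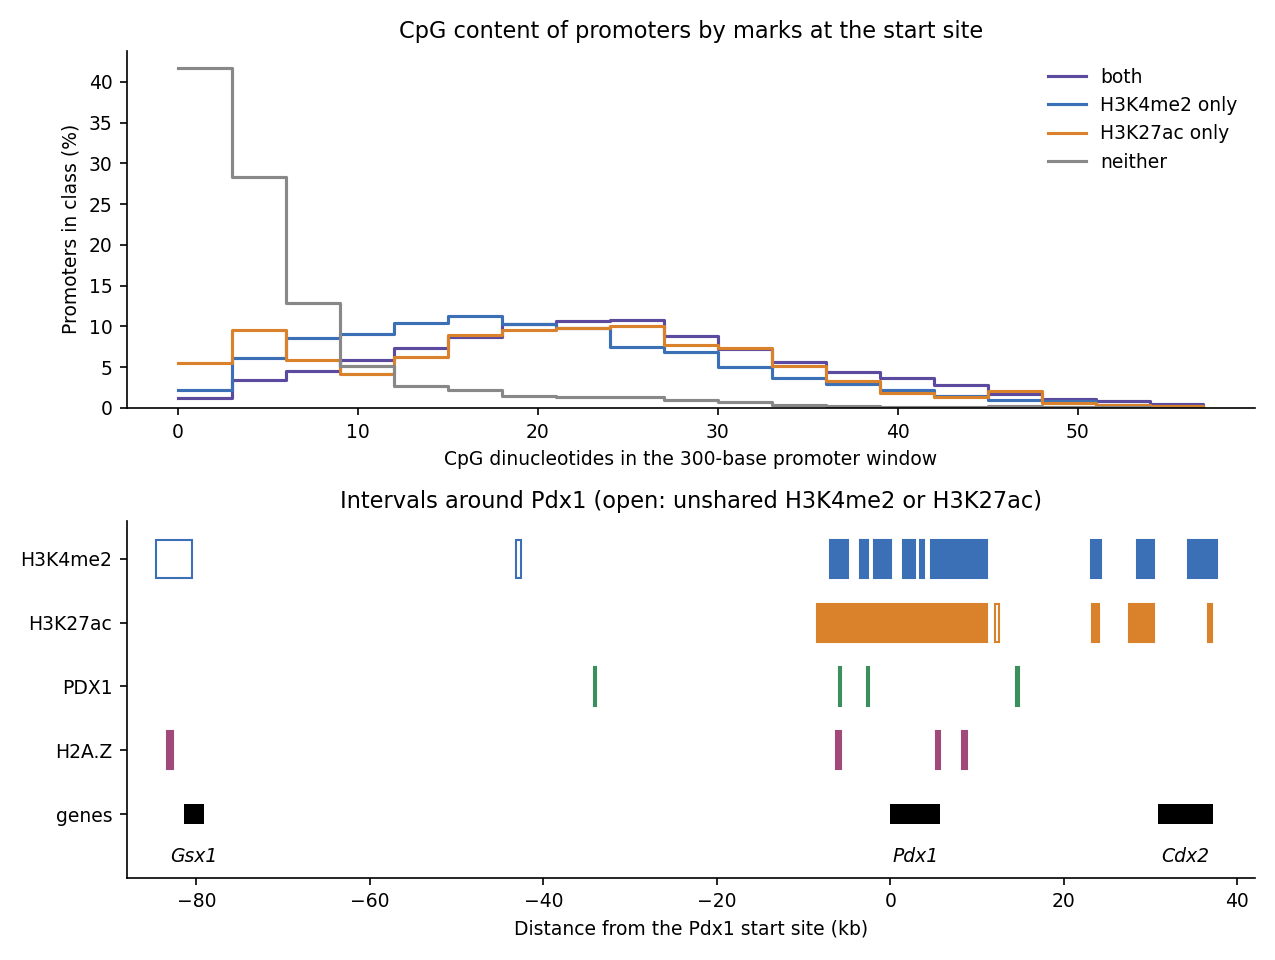
Top: distribution of CpG number (x axis, count per 300-base window) as percent of promoters (y axis) in the 4 classes of start site; the class with neither mark lies at the lowest counts (median 3), and the medians of the other classes are 18 to 23. Bottom: intervals of 4 lists and gene spans around Pdx1 by distance from its start site (kb), open boxes being H3K4me2 or H3K27ac intervals not shared with the other mark; 1 H3K27ac interval covers Pdx1 together with 6 H3K4me2 intervals, and the H3K4me2 interval at Gsx1 has no H3K27ac.

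The H3K4me2 list split almost evenly, and most of the H3K27ac list was shared. Of the H3K4me2 intervals, 21054 (51.2%, Wilson 95% interval 50.7 to 51.7%) were shared and 20086 (48.8%) unshared. Of the H3K27ac intervals, 19165 (64.5%, 63.9 to 65.0%) were shared and 10570 (35.5%) unshared. These and the other intervals on shares cover counting error only and treat genomic intervals as independent, which neighbouring ones are not. In bases, 22.9 Mb lay in both marks, 42.9% of the sequence covered by H3K4me2 and 50.5% of that covered by H3K27ac. By chromosome the shared part of the H3K4me2 list ran from 44.4% on chromosome 14 to 58.6% on X, and that of the H3K27ac list from 59.4% on chromosome 4 to 70.8% on X, leaving out Y, which had 2 intervals in each list.

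Shared intervals were wider in both lists. A wider interval has more chance of a 1 bp overlap, so width and the shares by width are descriptions. The part of this in the differences was not tested. The median width of H3K4me2 intervals was 1313 bp (quartiles 784 and 2179) when shared and 674 bp (500 and 1142) when unshared, a ratio of 1.95. For H3K27ac it was 1470 bp (839 and 2231) against 635 bp (500 and 1292), a ratio of 2.31. The smallest width the caller gave was 500 bp, a single search window. Intervals of that width made up 39.0% of the unshared and 13.3% of the shared H3K4me2 intervals, and 45.4% of the unshared and 12.4% of the shared H3K27ac intervals. At the other end, 363 shared and 8 unshared H3K4me2 intervals exceeded 5 kb, as did 674 shared and 42 unshared H3K27ac intervals. The share of shared intervals went up with width in both lists, as it did with tags. It was 26.3% of H3K4me2 intervals at 500 bp, 43.6% at 501 to 1000 bp, 61.3% at 1001 to 2000 bp, 80.1% at 2001 to 5000 bp and 97.8% above. For H3K27ac the same 5 classes gave 33.1%, 60.3%, 76.2%, 82.9% and 94.1%.

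Shared intervals also carried more signal. The normalized tag count, here called tags, is the number of sequenced fragments in an interval scaled to a library of 10000000, and is compared within a list only. The median was 51.4 tags in shared and 14.6 in unshared H3K4me2 intervals, a ratio of 3.52, and 81.9 against 15.6 in H3K27ac intervals, a ratio of 5.25. Per kb of interval the ratios were smaller, 1.81 for H3K4me2 (36.9 against 20.3 tags per kb) and 2.38 for H3K27ac (55.1 against 23.2). Within a width class the 2 kinds came closer. At 2001 to 5000 bp, H3K4me2 density was 46.0 tags per kb in shared and 46.4 in unshared intervals, while H3K27ac density was 89.3 against 72.1. At 1001 to 2000 bp it was 39.9 against 38.9 for H3K4me2 and 57.1 against 41.1 for H3K27ac. At these widths the density differed by 1 tag per kb or less between the H3K4me2 classes and by more in the H3K27ac list. Below 1001 bp shared intervals were denser in both lists. Of all tags in intervals, the shared ones held 70.0% for H3K4me2 and 84.7% for H3K27ac. Strong unshared intervals existed as well, since 4011 unshared H3K4me2 intervals (19.97%) and 1803 unshared H3K27ac intervals (17.1%) lay above the median tags of the shared ones. Enrichment over input did not follow the same order in both lists. Its median was 5.55-fold in shared and 5.99-fold in unshared H3K4me2 intervals, and 7.35-fold against 5.88-fold for H3K27ac. The input tags per kb were higher in the shared intervals of both lists, with 10.7 against 8.22 for H3K4me2 and 11.7 against 9.21 for H3K27ac, and the part of this in the results was not tested. Among intervals at 8 or more times the input, which kept 70.6% of the H3K27ac but 7.03% of the H3K4me2 intervals over 2000 bp, the H3K27ac order reversed, with a size ratio of 0.862 and a tag ratio of 0.538.

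**Figure D2:**
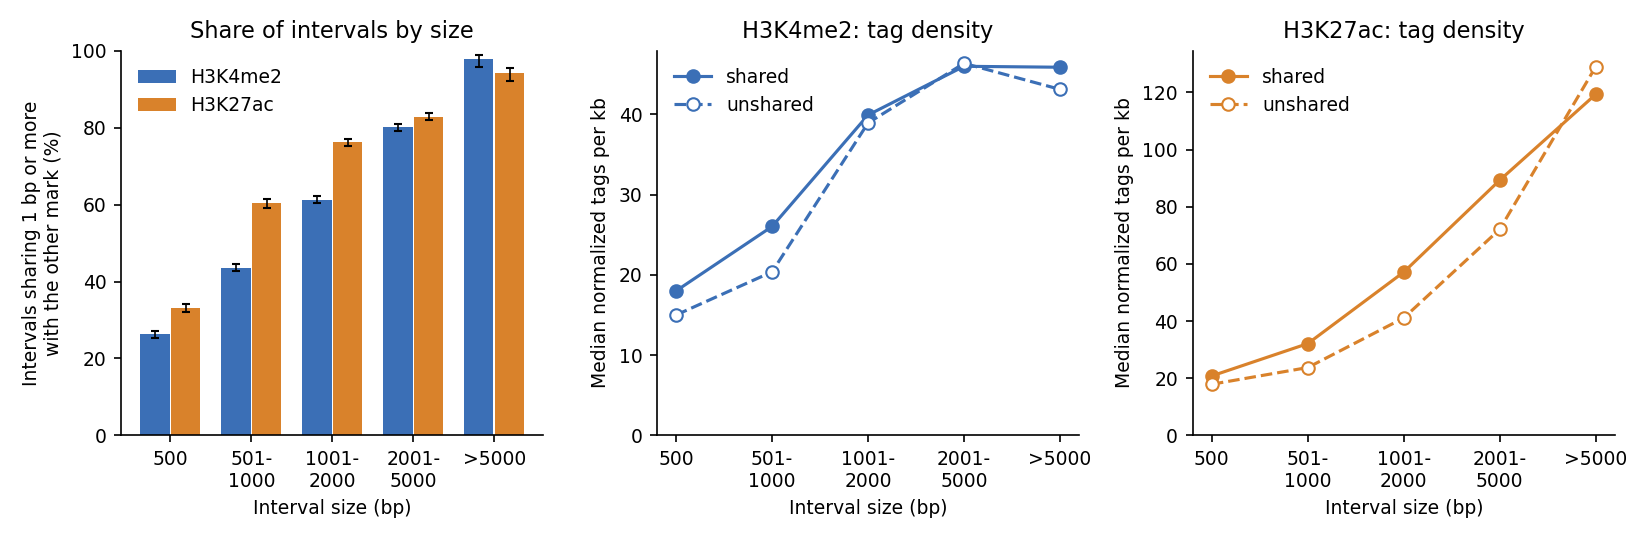
Left: percent of intervals sharing at least 1 bp with the other mark (y axis) by interval size in bp (x axis), with Wilson 95% intervals as error bars; it climbs from 26.3% to 97.8% for H3K4me2 and from 33.1% to 94.1% for H3K27ac. Middle and right: median normalized tags per kb of shared (filled) and unshared (open) intervals in each size class; the H3K4me2 lines run close together from 1001 bp on, and the H3K27ac lines stay apart up to 5000 bp (42 unshared intervals lie above).

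The shared intervals formed 21446 pairs that mostly overlapped deeply. The median overlap was 812 bp (quartiles 501 and 1358), and 302 pairs had 100 bp or less in common. In 31.3% of pairs the H3K4me2 interval lay inside the H3K27ac interval, in 27.5% the H3K27ac interval lay inside the H3K4me2 interval, and 41.2% overlapped in part. The centres were a median of 315 bp apart. Across pairs, tags per kb of the 2 marks had a Spearman's rho of 0.57, tags of 0.37 and widths of 0.16, given as descriptions over pairs that share their region and input. Most H3K27ac intervals met 1 H3K4me2 interval (17022), 2033 met 2 and 110 met 3 or more. Those that met several were wider (median 2588 against 1347.5 bp), and 60.5% of them contained an annotated start site, against 23.2% of those that met 1. The largest number was 6, at Pdx1 and at Ero1b, an oxidoreductase for disulfide bonds of proinsulin (25842 bp, 2307.5 tags). The interval nearest to Abcc8, which encodes the sulfonylurea receptor of the KATP channel, met 5, and that of Neurod1, a basic helix-loop-helix factor of endocrine cells, met 4. Conversely 366 H3K4me2 intervals met 2 or more H3K27ac intervals, at most 4.

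Unshared intervals of H3K27ac lay nearer to the other mark than those of H3K4me2. The median distance to the nearest interval of the other mark was 9849.5 bp for unshared H3K27ac and 25456 bp for unshared H3K4me2, in lists that differ in length. More than 100 kb separated 3454 unshared H3K4me2 intervals (17.2%) and 394 unshared H3K27ac intervals (3.73%) from the other mark. Just outside the limit, 215 H3K4me2 and 104 H3K27ac intervals were within 100 bp of an interval of the other mark.

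Distance to genes separated the 2 lists. Within 1 kb of a protein-coding gene end, measured from the interval centre, lay 31.3% of shared and 8.07% of unshared H3K27ac intervals, a difference of 23.2 percentage points (Newcombe 95% interval 22.4 to 24.1). For H3K4me2 it was 26.3% against 20.5%, a difference of 5.81 points (4.99 to 6.62). The H3K4me2 difference depended on how it was measured. It was 14.04 points when the nearest edge of the interval was used in place of its centre. With the H3K4me2 list limited to its 29735 top-scoring intervals it was 0.203 points, with an interval (-0.839 to 1.24) that included 0. The H3K27ac difference was 26.5 points by the nearest edge. Among intervals at 8 or more times the input it was -1.43 points, with an interval (-3.58 to 0.831) that included 0. Gene ends include both the start and the 3′ end of a gene, since the gene table gives no strand. Within 1 kb of an annotated start site lay 28.8% of shared and 5.35% of unshared H3K27ac intervals, and 24.5% and 17.3% of H3K4me2 intervals. The median distance to a gene end was 9006 bp for shared and 24933 bp for unshared H3K27ac intervals, and 7608 and 16372 bp for H3K4me2. The interval centre fell within a protein-coding gene for 64.3% of shared and 60.7% of unshared H3K27ac intervals and for 65.3% and 57.0% of H3K4me2 intervals. Exons, introns and UTRs were not determined.

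At widths of 1001 to 5000 bp the H3K4me2 order turned around. Among intervals of 1001 to 2000 bp, 23.1% of shared and 37.5% of unshared H3K4me2 intervals were at gene ends, a difference of -14.4 points (-16.1 to -12.8). At 2001 to 5000 bp it was 48.5% against 65.3%, -16.8 points (-19.6 to -14.0), and by the nearest edge 69.2% against 78.6%, -9.45 points (-11.8 to -6.95). The same was true of the fifth of the list with the most tags, where 47.1% of shared and 64.3% of unshared intervals were at gene ends. Above 5000 bp, 2 of 8 unshared intervals (25%) and 24.0% of the shared ones were at gene ends, and the interval of the difference (-35.4 to 17.4) included 0. At 500 bp the shares were 6.27% and 6.44%, -0.175 points (-1.19 to 0.918). At 501 to 1000 bp they were 16.4% and 15.0%, 1.40 points (0.0271 to 2.79), in the order of the whole list. For H3K27ac, unshared intervals were less often at gene ends in the 4 classes up to 5000 bp, for example 12.9% against 38.3% at 1001 to 2000 bp and 7.90% against 28.2% at 2001 to 5000 bp. Above 5000 bp, with 42 unshared intervals, the interval of the difference included 0.

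**Figure D3:**
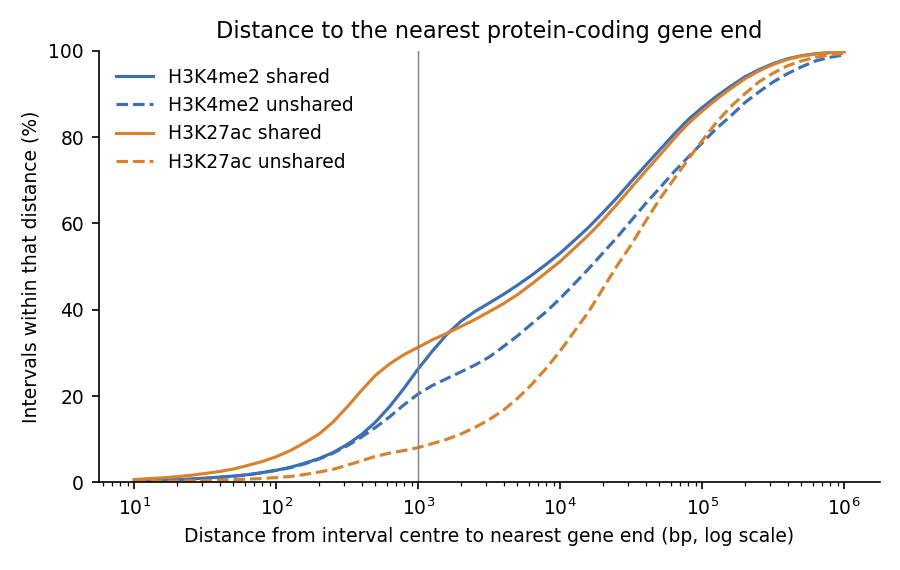
Cumulative percent of intervals (y axis) within a given distance of the nearest protein-coding gene end (x axis, bp, log scale), measured from the interval centre, for shared (solid) and unshared (dashed) intervals; the vertical line marks 1 kb. At that line the curves stand at 31.3% and 8.07% for H3K27ac and at 26.3% and 20.5% for H3K4me2.

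The shared H3K27ac intervals with the most tags included those nearest to the beta-cell genes Pdx1, Abcc8 and Pax6. Each class is described by the 5 intervals with the most tags at gene ends and the 5 farther than 1 kb away by their centre, a wide interval being able to reach a gene end all the same. The highest was nearest to Frmd8 (chromosome 19, 5836418 to 5851007, mm10, 6411.7 tags). It was followed by Pdx1 (5857.0 tags, 19620 bp), Abcc8 (5610.5 tags, 31588 bp) and Pax6, a paired-box factor of islet cells (chromosome 2, 105659558 to 105694974, 4964.2 tags), whose interval of 35416 bp was the widest of either list. The next interval lay 56673 bp from the nearest gene end, that of Ppara, a nuclear receptor of fatty acid metabolism (4197.3 tags). All 5 held a PDX1 peak, as did 60.5% of all shared H3K27ac intervals over 5000 bp. At gene ends the highest were Cdkn2c (4820.5 tags) and Cdkn1b (3068.5 tags), which encode cyclin-dependent kinase inhibitors, Id3, an inhibitor of basic helix-loop-helix factors (2609.1 tags), H2-DMa (2082.6) and Pcbp1 (2006.7). The strongest shared H3K4me2 intervals were nearest to Rhof (1001.9 tags), Myt1l (914.6), Isl1, a LIM-homeodomain factor of islets (878.6 tags over 14667 bp), Cdkn2c (831.0) and Etv1 (749.3). At gene ends they were Id2 (540.9), Fosl2 (484.3), Scrt1 (470.4), Pcdh7 (467.8) and Nefm (466.3). Several of these genes, such as Scrt1, Myt1l and Nefm, are best known from neurons.

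The strongest unshared H3K4me2 intervals stood at another set of genes and each held H2A.Z. At gene ends they were Fzd5, a Wnt receptor (319.0 tags, chromosome 1, 64736029 to 64739934, with the nearest H3K27ac interval 117898 bp away), Esrp2, an epithelial splicing regulator (313.0), Ier5l (306.2), Myb, a haematopoietic transcription factor (284.1), and Slc25a23 (280.4). Farther away they were Elavl2, encoding a neuronal RNA-binding protein (455.1 tags, inside the gene at chromosome 4, 91370591 to 91377864, with no H3K27ac within 178709 bp), Gsx1 (357.2), Tgfb1 (336.6), Samd4 (311.5) and Fat4 (299.1). Of these 10 intervals, 10 overlapped H2A.Z and 0 overlapped PDX1, and the nearest H3K27ac was 4401 to 178709 bp away. Among all unshared H3K4me2 intervals of 2001 to 5000 bp, 61.2% overlapped H2A.Z and 6.86% PDX1. The PDX1 count was thus near that share. Of the 10 strongest shared H3K4me2 intervals, 6 overlapped H2A.Z and 3 PDX1, against 52.3% and 37.2% of all shared ones over 5000 bp. The 3 widest unshared H3K4me2 intervals were at Elavl2 (7273 bp), Cyp26b1, which breaks down retinoic acid (7083 bp), and Pcdh19 (5616 bp).

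The strongest unshared H3K27ac intervals were closer to the other mark. At gene ends they were Trp53inp2 (1001.5 tags, 851 bp from an H3K4me2 interval), Kif12 (940.4), Fads2, a fatty acid desaturase (847.4), Snrnp35 (823.5) and Cdt1, a licensing factor of DNA replication (673.9). Farther away they were nearest to Rubcnl (1473.6), Ubr4 (1387.9), Zc3h3 (1379.7), Rgs3 (1378.2) and Fam207a (1338.0). The nearest H3K4me2 interval was 851 to 39242 bp away, and 4 of the 10 held PDX1 and 2 held H2A.Z. These counts were near the shares of all unshared H3K27ac intervals of 2001 to 5000 bp, 37.7% for PDX1 and 21.5% for H2A.Z. The interval at Rgs3, a regulator of G-protein signalling, was with 9145 bp the widest H3K27ac interval without H3K4me2, followed by Nefl (8454 bp) and Sik2, a salt-inducible kinase (8450 bp).

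Long genes led the counts of intervals per nearest gene. Unshared H3K4me2 intervals were most frequent nearest to Tenm3 (48, beside 16 shared), Pcdh9 (38), Ptprd (32), Adgrl3 (31) and Sgcz (26), genes of neuronal adhesion or of the sarcoglycan complex that span 808741 to 2270506 bp, with median tags of 6.94 to 9. Unshared H3K27ac intervals were most frequent nearest to Sorbs2 (21), Rere (20), Agap1 (18), Myt1l (17) and Ptprn2, an insulin-granule membrane protein (17), with median tags of 8.94 to 18.7. Shared intervals were most frequent nearest to Maml3, a coactivator of Notch signalling, and Zfp608, with 32 H3K4me2 and 30 H3K27ac intervals each. Unshared H3K4me2 intervals had 9417 nearest genes and unshared H3K27ac intervals 5415. The 3477 genes in both sets were 36.9% of the first and 64.2% of the second.

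PDX1, which binds enhancers of beta-cell genes, was more frequent in shared intervals of both marks. A PDX1 peak lay in 25.3% of shared and 13.2% of unshared H3K4me2 intervals, a difference of 12.1 points (Newcombe 95% interval 11.4 to 12.9). For H3K27ac it was 28.2% against 14.7%, 13.5 points (12.6 to 14.4). Within width classes the marks differed. H3K4me2 kept the order in the 4 classes up to 5000 bp, for example 30.5% against 13.2% at 1001 to 2000 bp (17.3 points, 15.9 to 18.7) and 19.4% against 6.86% at 2001 to 5000 bp (12.5 points, 10.8 to 14.1). For H3K27ac the difference was 8.25 points at 500 bp and 3.08 points (1.05 to 5.04) at 1001 to 2000 bp. At 2001 to 5000 bp it was 0.732 points, with an interval (-2.46 to 3.86) that included 0, for shares of 38.5% and 37.7%. Averaged with equal weight over size classes, those above 2000 bp taken as 1 class, the H3K27ac difference was 5.68 points. In the upper 50% of both lists by score it was 1.55 points, and the H3K4me2 difference 4.34. Above 5 kb, PDX1 was in 60.5% of the 674 shared and 61.9% of the 42 unshared H3K27ac intervals. Away from gene ends the shares were 38.3% and 15.5% for H3K27ac and 31.9% and 16.0% for H3K4me2. At gene ends they were low, 6% and 5.86% for H3K27ac and 7.10% and 2.38% for H3K4me2.

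H2A.Z, a variant of histone H2A found at promoters and at accessible elements, gave opposite orders in the 2 lists among intervals of 1001 to 5000 bp. Overall it was in 29.5% of shared and 21.6% of unshared H3K4me2 intervals (7.90 points, 7.06 to 8.74) and in 32.3% of shared and 10.5% of unshared H3K27ac intervals (21.8 points, 20.9 to 22.7). At 1001 to 2000 bp it was in 29.6% of shared and 41.9% of unshared H3K4me2 intervals (-12.3 points, -14.0 to -10.5) and at 2001 to 5000 bp in 49.5% and 61.2% (-11.7 points, -14.5 to -8.82). With equal weight over size classes, those above 2000 bp taken as 1 class, the H3K4me2 difference was -5.53 points. In the upper 50% of both lists by score it was 1.02 points, with an interval (-0.278 to 2.31) that included 0. At 8 or more times the input the H3K27ac difference was -3.19 points. In the H3K27ac list the shared intervals kept the higher share at these widths, 34.9% against 18.2% and 37.7% against 21.5%. At gene ends H2A.Z was in 48.1% of shared and 47.9% of unshared H3K4me2 intervals, and in 50.4% and 32.5% of H3K27ac intervals. H2A.Z was called against the other input of the series.

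The clock factors were rare in either list. CLOCK was in 2.96% of shared and 0.652% of unshared H3K4me2 intervals (2.31 points, 2.06 to 2.57), and in 3.76% and 1.28% of H3K27ac intervals (2.48 points, 2.13 to 2.82). BMAL1 was in 2.74% and 0.876% of H3K4me2 intervals (1.86 points, 1.61 to 2.12), and in 3.20% and 1.26% of H3K27ac intervals (1.94 points, 1.61 to 2.26). With the same equal weight over size classes these 4 differences fell. They were 1.46 points for CLOCK in H3K4me2 and 1.03 in H3K27ac, and 1.08 for BMAL1 in H3K4me2 and 0.873 in H3K27ac. At 8 or more times the input the H3K27ac differences were -1.60 for CLOCK and -1.29 for BMAL1.

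**Figure D4:**
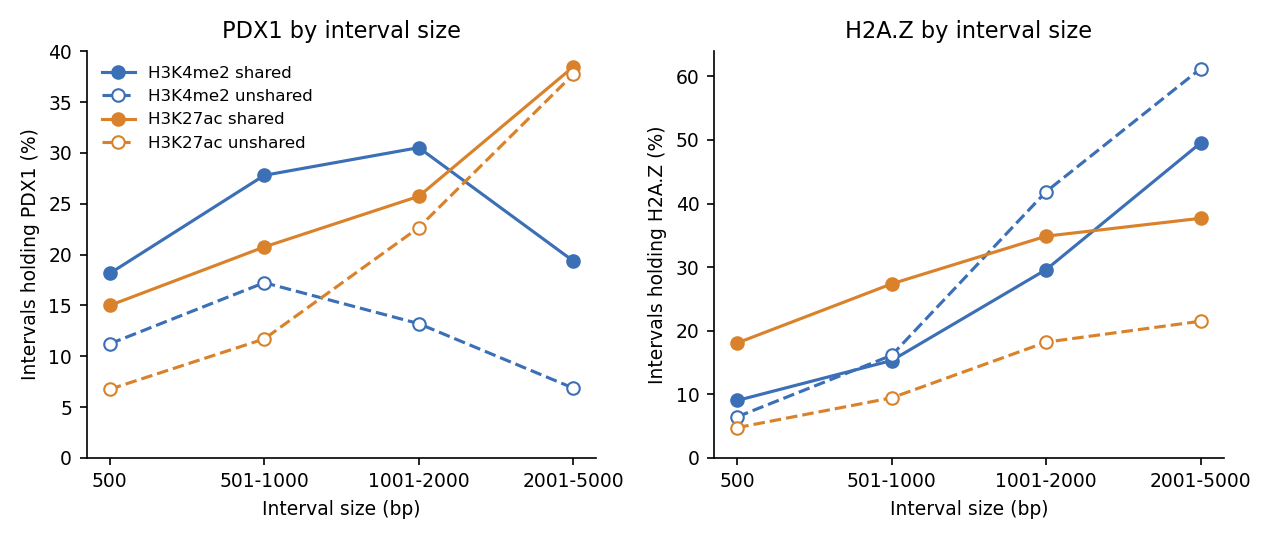
Percent of intervals holding a PDX1 peak (left) or an H2A.Z interval (right) on the y axis, by interval size in bp on the x axis, for shared (filled, solid) and unshared (open, dashed) intervals of each mark. PDX1 separates shared from unshared H3K4me2 in each class shown and meets for H3K27ac at 2001 to 5000 bp (38.5% and 37.7%), while H2A.Z is higher in unshared H3K4me2 from 1001 bp on (41.9% against 29.6%).

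Genes of the secretory pathway of beta cells carried both marks throughout. Of the 20 genes for insulin, its processing and the secretory granule, 20 had both marks at a gene end, against 36.5% of all protein-coding genes. The lists were drawn up with earlier results of these data known, and their counts are descriptions. Where several intervals lay within 1 kb of a gene's ends, the one with the most tags is given. The values of the 2 marks can therefore come from opposite ends of a gene. The highest H3K27ac values of this list were at Iapp, encoding amylin (3217.4 tags, with 283.4 for H3K4me2), Ero1b (2307.5 and 543.5), G6pc2, a glucose-6-phosphatase of islets (2186.1 and 19.9), Chga, encoding the granule protein chromogranin A (1985.8 and 258.6), and Slc30a8, the zinc transporter of the granule (1930.0 and 450.6). The insulin genes had 1320.9 H3K27ac and 133.8 H3K4me2 tags at Ins2 and 393.9 and 17.2 at Ins1. The lowest H3K27ac value was 43.9 tags at Pcsk1n, an inhibitor of prohormone convertase 1. H3K4me2 at G6pc2 and Ins1 was thus below the median of this list (139.05 tags). H3K27ac was above its median of 593.1 tags at G6pc2 and below it at Ins1. These values leave out any H3K4me2 interval farther than 1 kb from the ends. In all, 4 H3K4me2 intervals were nearest to G6pc2, and 3 shared and 6 unshared ones to Ins1. The count of both marks was 18 with the H3K4me2 list limited to its 29735 top-scoring intervals, 8 in the upper 50% of both lists by score and 4 at 8 times the input, a limit that left both marks at 0 to 4 genes of each list.

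Transcription factors of mature beta cells were more mixed. Of 26, 18 had both marks, against 36.5% of all genes, 4 H3K4me2 only (19.3% of all genes), 1 H3K27ac only and 3 neither. In the upper 50% of both lists by score the order turned, with both marks at 7 and H3K4me2 only at 10, and at 8 times the input the counts were 0 and 4. After Pdx1 and Pax6 the highest H3K27ac values were at Isl1 (3491.4 tags), Nkx2-2 (2681.3), Neurod1 (2513.0) and Nkx6-1 (2411.0), all factors needed for beta-cell formation or function, and the lowest at Nkx6-2 (22.3). Genes with H3K4me2 and no H3K27ac included Gata6 (154.1 tags), an endoderm factor, and Foxa1 (13.5), a forkhead factor. Mafa, an activator of insulin transcription, had both marks (187.0 H3K4me2 and 839.2 H3K27ac tags). Prox1 had H3K27ac only (184.7 tags), and Gata4, St18 and Ldb1 had neither.

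Of the 14 genes of glucose sensing and excitability, 9 had both marks, against 36.5% of all genes. They were led by Trpm5, a calcium-activated cation channel (3073.0 H3K27ac tags), and included the glucose transporter Slc2a2 (949.4). The KATP channel genes Kcnj11 (637.4) and Abcc8 (307.5 at its ends) and the incretin receptor Glp1r (390.2) were also among them. Another 1 had H3K4me2 only, and Gipr, the receptor of the incretin GIP, had H3K27ac only within 1 kb (302.3 tags). That H3K27ac interval was shared with an H3K4me2 interval that did not reach within 1 kb. Cacna1c, Cacna1d and Ucn3 had neither mark at an end.

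Of 22 vesicle exocytosis genes, 4 had H3K27ac only, a class that held 3.42% of all genes. They included Pclo (389.4 tags), Syt7, a calcium sensor (186.9), and Rph3al (20.8). Another 4 (18.2%, near the 19.3% of all genes) had H3K4me2 only, namely Cplx1 (123.7 tags), the syntaxin gene Stx1a (87.0), Rims1 (52.9) and Doc2b (37.9). The other 14 had both (against 36.5% of all genes), among them Snap25 (109.1 H3K4me2 and 260.6 H3K27ac tags), Vamp2 (136.4 and 251.7) and Cplx2 (196.0 and 915.9). The genes with both were 17 under the limit of 5 kb, 9 with the H3K4me2 list limited to 29735 intervals, 7 in the upper 50% of both lists by score and 2 at 8 times the input.

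Of the 20 core clock genes, 13 had both marks, against 36.5% of all genes, and 5 (25%) had H3K4me2 only, near the 19.3% of all genes. Both marks were at 7 in the upper 50% of both lists by score and at 0 at 8 times the input. Dbp, encoding an output factor of the clock, had the highest H3K27ac value (1455.7 tags), followed by the repressors Bhlhe40 (1141.5), Per2 (874.9) and Bhlhe41 (866.0). Nfil3 combined the highest H3K4me2 value (415.3 tags) with the lowest H3K27ac (17.1). Genes with H3K4me2 alone included Per3 (173.2 tags), Rorb (109.5), Hlf (106.8) and Npas2 (39.7). Arntl and Tef had neither at an end. Of 30 ribosomal protein genes, which most cells express, 24 had both, against 36.5% of all genes, 4 H3K4me2 only and 2 H3K27ac only. Median tags were 103.7 for H3K4me2 and 123.6 for H3K27ac. The H3K4me2 intervals at Rpl18, Rps2 and Rplp0, counted as H3K4me2 only, were shared. With a limit of 5 kb both marks were at 28 and H3K4me2 only at 0.

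Most genes of other lineages had H3K4me2 alone or neither mark. Of 60 developmental regulators of other lineages, 24 (40%) had H3K4me2 only, against 19.3% of all genes, and 6 (10%) had both, against 36.5%. H3K27ac only was at 0, and 30 (50%) had neither, against 40.8% of all genes. H3K4me2 alone was highest at Otx1, a homeobox gene of the brain (160.4 tags), Msx1 (127.4) and Neurog2, a neurogenic factor (127.1). The 6 with both included Tbx3, Lhx1, Six2, Foxc1 and Cdx2. Of 39 Hox genes, which pattern the body axis, 0 had H3K27ac. H3K4me2 only was at 10 (25.6%), near the 19.3% of all genes, and 29 (74.4%) had neither, against 40.8%. H3K4me2 alone was at 18 Hox genes with a limit of 5 kb and at 3 in the upper 50% of both lists by score, and at 26 and 13 of the 60 developmental regulators. The H3K4me2 tags at those 10 were low, 7.12 to 24.4 with a median of 11.6, and each came from an unshared interval. Hoxa5 and Hoxa6 were counted by the same interval, as were Hoxb7 and Hoxb8.

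Of 24 genes of the other pancreatic cell types, 4 had both marks, 6 H3K4me2 only and 14 neither. Among all protein-coding genes these classes held 36.5%, 19.3% and 40.8%, and the 6 (25%) were near their share. Both were found at the glucagon gene Gcg (123.7 H3K4me2 and 55.8 H3K27ac tags), at Ttr, encoding transthyretin (166.4 and 235.3), at Hes1 (250.8 and 402.8) and at Pou3f4 (53.6 and 7.45). The acinar genes Cpa1, Cela1, Amy2b, Rbpjl and Ptf1a and the duct genes Krt19 and Sox9 had neither. Other acinar and duct genes had H3K4me2 only, namely Bhlha15 (92.6 tags), Onecut1 (41.6) and Cftr (27.7). The alpha-cell factors Irx1 and Irx2 (104.2 and 60.7 tags) and the somatostatin gene Sst (7.87) also had H3K4me2 only. Of 19 genes normally silenced in beta cells, 4 (Maf, Lmo4, Oat and Nnat) had both and 7 (36.8%) H3K4me2 only. The other 8 (42.1%), with the lactate dehydrogenase gene Ldha among them, had neither, near the 40.8% of all genes. The 7 included Rest, the repressor of neuronal genes (152.6 tags), and Slc16a1, a lactate and pyruvate carrier (108.7). Of 17 markers of endothelial, immune, stromal and glial cells, 13 (76.5%) had neither mark, against 40.8% of all genes. Both marks were at 0 of them (4 with a limit of 5 kb), and Cd68 had H3K27ac only (298.6 tags). Of the beta-cell markers, Pdx1, Mafa, Nkx6-1, both insulin genes and Iapp had both marks.

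**Figure D5:**
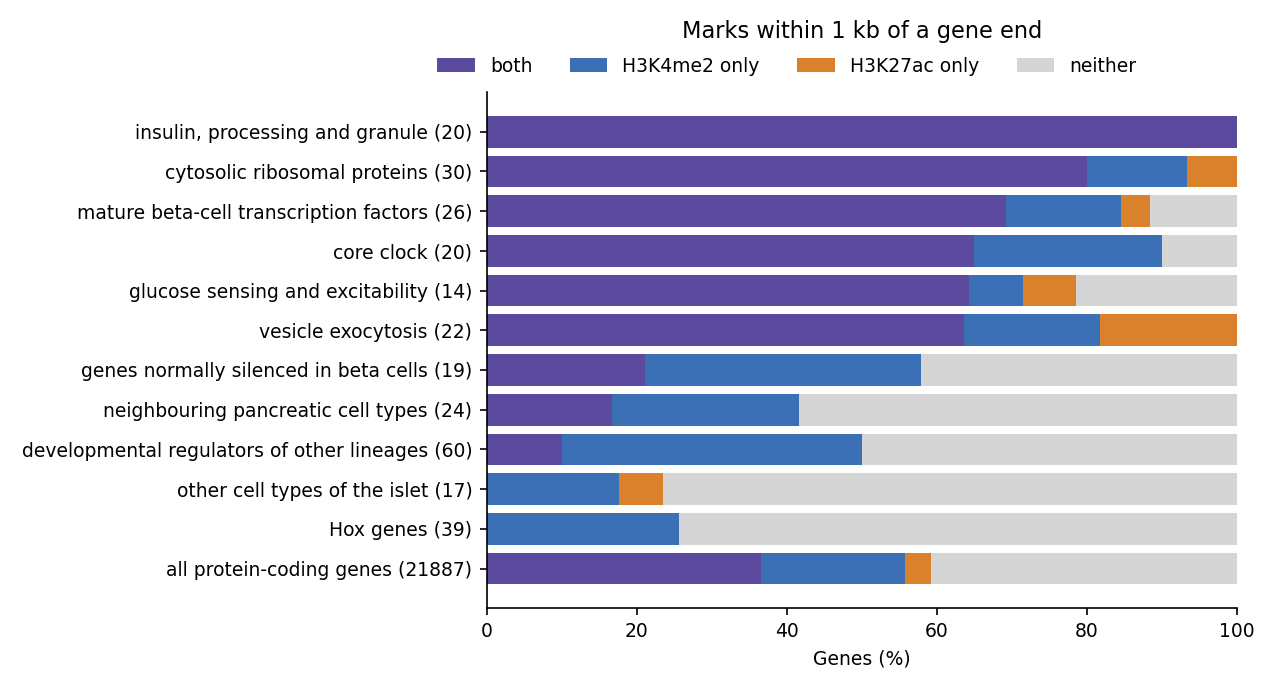
Percent of genes (x axis) with both marks, H3K4me2 only, H3K27ac only or neither within 1 kb of a gene end, for the 11 gene lists (y axis, number of genes in brackets) and all 21887 protein-coding genes. Both marks are at 20 of 20 genes of insulin, its processing and the granule and at 0 of 39 Hox genes, against 36.5% of all genes.

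The Pdx1 region brought the classes together within a short distance. A single H3K27ac interval of 19620 bp (chromosome 5, 147261608 to 147281228, mm10) covered Pdx1, whose span is 147270097 to 147275848, with 5857.0 tags. It contained 6 H3K4me2 intervals of 500 to 6434 bp. The one at the start site had 148.1 tags over 1925 bp, and the one at the far end of the gene 397.3 tags over 6434 bp. PDX1 peaks inside the domain began at -5.87 and -2.70 kb from the start site, with 36.3 and 31.2 tags. Gsx1, whose span starts at -81.4 kb from the start of Pdx1, had an H3K4me2 interval of 4142 bp with 357.2 tags and an H2A.Z interval, and the nearest H3K27ac was 72054 bp away. Cdx2, an intestinal homeobox gene 30.8 kb after the start of Pdx1, had both marks, with its highest values at opposite ends. These were 300.8 H3K27ac tags at the end nearer to Pdx1 and 282.6 H3K4me2 tags at the other. The H3K27ac interval inside that H3K4me2 interval had 8.94 tags over 500 bp. The homeobox genes Gsx1 and Pdx1 thus had H3K4me2 at their start sites, with 357.2 tags over 4142 bp and 148.1 tags over 1925 bp. H3K27ac was called at Pdx1 and not at Gsx1.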

How the data were processed

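ChIP-seq lists of 6 targets in Beta-TC6 cells were used, 1 library each; 2 input libraries entered through the authors' peak calls. Reads were aligned to mm10 with Bowtie 1.1.1 and processed with HOMER (version not given in the sources used here), per the submitters' processing notes. Per the file headers, H3K4me2 and H3K27ac intervals were called by findPeaks in histone style, starting from windows of 500 bp that were stitched within 1000 bp, with at least 4 times the input, a p-value over input of 1e-04 and a Poisson p-value of 0.001. The deposited normalized tag count is a signal scaled to 10000000 tags, per the file headers. The deposited findPeaks score, the deposited fold over input (a ratio) and the deposited input tags described or filtered intervals within a list. The deposited p-value of each interval and the focus ratio (a fraction) in the authors' factor lists entered no result. The labels of H2A.Z disagree on its input; the header of its list, which gives the input of BMAL1 and CLOCK, was followed. The 2 libraries differed in depth (26678241 and 13430083 tags), so tags were compared within a list only.

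Overlaps needed at least 1 bp. Gene spans (21887 protein-coding genes, no strand) and start sites came from RefSeq tables for GRCm38.p6. Distances ran from the interval centre to the nearest gene end, and a gene was marked when an interval reached within 1.0 kb of either end. Shares have Wilson and differences Newcombe 95% intervals. With 1 library per mark no test was made, and intervals and genes are not replicates. Named genes were those nearest to the 5 intervals with the most tags in each of the 4 classes, at gene ends and away from them, the 3 widest of each class, the 5 genes nearest to most unshared intervals of each mark, and members of 11 gene lists, some of which are not reported here by name. The genes nearest to most shared intervals, and the genes of the printed promoters, were added after seeing the values. The members and lists were chosen with earlier results of these data known. Alternatives changed the overlap, the lists' thresholds, the distance limit, the gene set and the weighting by size. That weighting took all intervals over 2000 bp as 1 class. On simulated data the overlap code recovered 200 of 200 planted overlaps of 1 bp, and 0 of 4000 calls and 0 of 2000 distances differed from a direct search. Scripts ran under Python 3.11.15 with pandas 2.3.3, NumPy 2.4.6, matplotlib 3.10.9 and SciPy 1.17.1.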

Additional observations from a re-analysis of the deposited data

How the results depend on the processing

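Of 118 values recomputed under an alternative, 42 stayed within the counting interval of the value reported (or, for counts of genes, within 1.5 times it), 69 moved beyond it in the same direction and 7 changed direction. The cause of these moves was not tested. No paired analysis was possible because each mark had 1 library and no replicate numbers. Below, size and tag ratios are shared over unshared medians, and differences are shared minus unshared percentage points.

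With at least 50% of the shorter interval in common, 46.1% of H3K4me2 and 60.9% of H3K27ac intervals were shared; the H3K4me2 size ratio was 1.74 and the tag ratios 3 (H3K4me2) and 4.75 (H3K27ac); PDX1 differed by 14.9 and 15.4 points, and in H3K27ac gene ends by 16.8 and H2A.Z by 19.3. With intervals up to 1 kb apart counted, 54.4% and 67.4% were shared, size ratios were 1.85 and 2.24, tag ratios 3.34 and 4.96, PDX1 differences 10.8 and 12.3, and the H2A.Z difference in H3K4me2 6.93.

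In the upper 50% of both lists by score (21173 and 15149 intervals), 43.5% and 55.4% were shared. Size ratios were 1.37 and 1.25, tag ratios 1.66 and 1.95, gene-end differences 3.74 and 19.7, PDX1 differences 4.34 and 1.55, H2A.Z differences 1.02 and 15.4, and the CLOCK difference in H3K27ac 2.95; 4869 genes had both marks and 1774 H3K27ac only. The score did not follow width: 312 of the 716 H3K27ac intervals over 5 kb were below the median score of 19.

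At 8 times the input, 8855 H3K4me2 and 11178 H3K27ac intervals remained, and 19.0% and 14.9% of them were shared. This kept 70.6% of the H3K27ac but 7.03% of the H3K4me2 intervals over 2000 bp. In H3K27ac the size ratio (0.862), the tag ratio (0.538) and the differences at gene ends (-1.43), for CLOCK (-1.60), BMAL1 (-1.29) and H2A.Z (-3.19) changed direction, and PDX1 differed by 3.84. In H3K4me2 the size ratio was 2.17, and differences were 3.78 at gene ends, 13.1 for PDX1, 1.01 for CLOCK, 0.721 for BMAL1 and 6.71 for H2A.Z. Genes with both marks numbered 553, with H3K4me2 only 933, with H3K27ac only 3410 and with neither 16991.

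With the H3K4me2 list limited to 29735 intervals, 58.7% of H3K4me2 and 53.9% of H3K27ac intervals were shared, size ratios were 1.53 and 2.19, tag ratios 2.18 and 5.09, the H3K4me2 differences 0.203 at gene ends and 1.83 for H2A.Z, the PDX1 difference in H3K27ac 11.3, and 1453 genes had H3K27ac only. Tag ratios per kb were 1.81 and 2.38.

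The gene-end difference was 11.8 points for H3K4me2 with a limit of 5 kb and 7.23 with start sites only, and 25.1 for H3K27ac with the ends of all genes; by the nearest edge it was 14.04 and 26.5. With equal weight over size classes, those above 2000 bp taken as 1 class, the H2A.Z difference in H3K4me2 changed direction (-5.53). The others that moved were CLOCK 1.46 and BMAL1 1.08 in H3K4me2. In H3K27ac they were PDX1 5.68, CLOCK 1.03, BMAL1 0.873 and H2A.Z 16.0.

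An interval just under a threshold is missing from a list, and H3K27ac had fewer tags, so unshared does not mean that the other mark was absent. No value has a replicate.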
